A study of Mus musculus with 8 samples.

Results

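The genes described here are the translation factors and aminoacyl-tRNA synthetases of a muscle microarray, chosen by gene symbol alone. The choice took every spot with 1 gene symbol that starts with EIF or EEF and a digit, the symbols TUFM, TSFM, ETF1, GSPT1 and PABPC1, and the synthetase symbols, without EIF4EBP1. It found 46 of 2922 named genes, on 108 of 9984 spots, and TSFM was not among them. By role they were 26 initiation factors, 7 elongation factors, 3 genes of release and poly(A) binding, 7 synthetases and 3 other genes with EIF names.

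RNA came from C2C12, a mouse myoblast cell line grown in DMEM with fetal bovine serum. Cells named MBN received control medium and were sampled at 0, 14 and 24 h. Cells named MBC received medium in which CAPAN-1 had been kept, a line of human pancreatic tumour cells, and were sampled at 14 and 24 h. The array is a muscle array with human gene symbols, so a spot reports the mouse counterpart of its gene or a related transcript. RNA of conditioned cells was set against control RNA of the same hour (MBC14 over MBN14, MBC24 over MBN24) and against control RNA of 0 h (MBC14 over MBN0, MBC24 over MBN0). Each of the 4 comparisons had 2 arrays. Array A carried the conditioned RNA in the Cy5 channel and array B in the Cy3 channel. The labels name the same RNA pair for both, so each comparison is 1 replicate from 1 cell line, and every SD below is technical. Nothing in the labels says that further cultures were grown.

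Translation of an mRNA begins when the cap-binding complex eIF4F, made of a cap-binding protein, the helicase EIF4A and the scaffold EIF4G, meets a small ribosomal subunit loaded with eIF3, eIF1, eIF1A and the eIF2 ternary complex carrying initiator tRNA. The guanine exchange factor eIF2B recharges eIF2, and 4E-binding proteins compete with EIF4G for the cap-binding protein. Elongation then needs EEF1A, which delivers aminoacyl-tRNA made by the synthetases, its exchange factor EEF1B, and EEF2, which moves the ribosome on by a codon. In skeletal muscle the rate of initiation and the activity of EEF2 are known points of control of protein synthesis, through phosphorylation as well as through the amount of each factor.

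Promoters are shown for the 3 genes that passed the test described below, from mouse because the RNA is from mouse. These 3 are 6.52% of the members, close to the 5.2% of all named genes that passed. Each is the 250 bases before the RefSeq start site in build GRCm38.p6, written 5′ to 3′ on the gene's strand. EIF4A1 is at chr11:69672424-69672673 on the minus strand, EIF4G1 at chr16:20672477-20672726 on the plus strand and EEF2 at chr10:81176381-81176630 on the plus strand. Capitals mark matches on either strand to the E-box CACGTG, known as a binding site of MYC and related factors, the GC box GGGCGG, the CCAAT box CCAAT or the TATA box TATAAA, which do not overlap here.
EIF4A1: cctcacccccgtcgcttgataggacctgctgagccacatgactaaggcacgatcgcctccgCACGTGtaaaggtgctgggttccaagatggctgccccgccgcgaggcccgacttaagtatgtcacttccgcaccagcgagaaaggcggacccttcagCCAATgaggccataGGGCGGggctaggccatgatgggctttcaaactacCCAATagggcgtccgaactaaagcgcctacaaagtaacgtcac
EIF4G1: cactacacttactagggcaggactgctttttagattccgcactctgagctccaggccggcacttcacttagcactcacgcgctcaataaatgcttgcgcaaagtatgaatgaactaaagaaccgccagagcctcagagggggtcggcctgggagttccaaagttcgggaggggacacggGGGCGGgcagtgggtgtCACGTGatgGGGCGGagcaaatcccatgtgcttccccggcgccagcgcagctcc
EEF2: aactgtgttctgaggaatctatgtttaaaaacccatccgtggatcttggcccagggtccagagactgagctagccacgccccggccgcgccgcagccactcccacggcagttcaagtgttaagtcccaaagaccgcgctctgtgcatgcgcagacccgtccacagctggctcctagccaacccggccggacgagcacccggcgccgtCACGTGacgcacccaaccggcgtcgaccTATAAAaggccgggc
Each of the 3 windows holds 1 E-box. EEF2 also holds 1 TATA box, EIF4A1 holds 1 GC box and 2 CCAAT boxes, and EIF4G1 holds 2 GC boxes. Promoters of 32 of the 46 members were matched by symbol or older symbol. An E-box was present in 8 of the 32 (25% of them), against 6.52% of 17491 protein-coding genes. Besides the 3 shown, of which EIF4A1 and EIF4G1 fell and EEF2 rose, these were EIF1B, EIF3F, EIF3K, EIF4H and EIF5A. The latter did not pass the test, and a link between E-box and score was not tested. The GC box was present in 62.5% against 42.3%, the CCAAT box in 31.2% against 36.2% and the TATA box in 9.38% against 12.3%. The core of the amino acid response element, TGATGNAA, through which ATF4 is known to act, was in 0 of the 32 and in 3.28% of all. These are letter matches in a fixed window and say nothing of binding.

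Values are signed scores of the deposited table, in score units whose scale and log base are unknown, so no fold changes are given. Over the 8 arrays the SD of all spots ranged from 1.34 to 1.58. As deposited, arrays A and B correlated between -0.32 and -0.13 over 2922 genes. This prompted a reading as Cy5 over Cy3, with the sign of array B turned, but does not establish it. The labels do not settle this, and turning the sign of each array B value below gives the other reading, in which scores are already conditioned over control. A positive value is taken as higher in conditioned medium, which is likely from the test and reference channels. The mean scores of the 2 matched hours, which share no RNA, correlated at 0.53 over all genes in the Cy5-over-Cy3 reading and at -0.06 in the other. This and the correlation of arrays A and B cannot choose between the readings. If scores are already conditioned over control, a dye effect on single genes that recurs between arrays would also give them. Such an effect was not tested. Neither reading could be checked against a level, because a ratio holds none, and for the same reason the myoblast identity of the cells could not be read from the arrays. Of 4 measured myoblast markers 0 passed the matched-hour test, and so did 0 of 3 fibroblast and 0 of 2 epithelial markers. In the Cy5-over-Cy3 reading HBA2 (3.97) and CD37 (3.28) of 5 blood cell markers rose, while CD48 (1.55), HBA1 (-0.45) and HBB (-0.88) did not pass. Of 2 endothelial markers CLDN5 (-1.86) fell and VWF (0.13) did not pass. As conditioned over control HBA2, CD37 and CLDN5 scored 0.64, -0.16 and 0.14, and none passed. The part of these markers in the results on translation genes was not tested. In whole-culture RNA, fewer cells and less RNA per cell cannot be told apart.

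For the shift common to 14 and 24 h, limma was fitted to 2 values per gene, the array means of both matched hours. In the Cy5-over-Cy3 reading the initiation factors EIF4A1 and EIF4G1 fell and the elongation factor EEF2 rose, at an adjusted p under 0.05. These 3 of 46 members (6.52%) stand beside 5.2% of all named genes (3.08% higher and 2.12% lower), a share close to the background. At an unadjusted p under 0.05 there were 15 members, 12 lower and 3 higher (32.6% of the members), against 22.8% of all genes (13.2% lower and 9.58% higher). Under the conditioned-over-control reading the same fit called 0 members and 0 genes in all (0%), with 4 members at an unadjusted p under 0.05 (8.7%, against 3.11% of all genes).

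**Figure D1:**
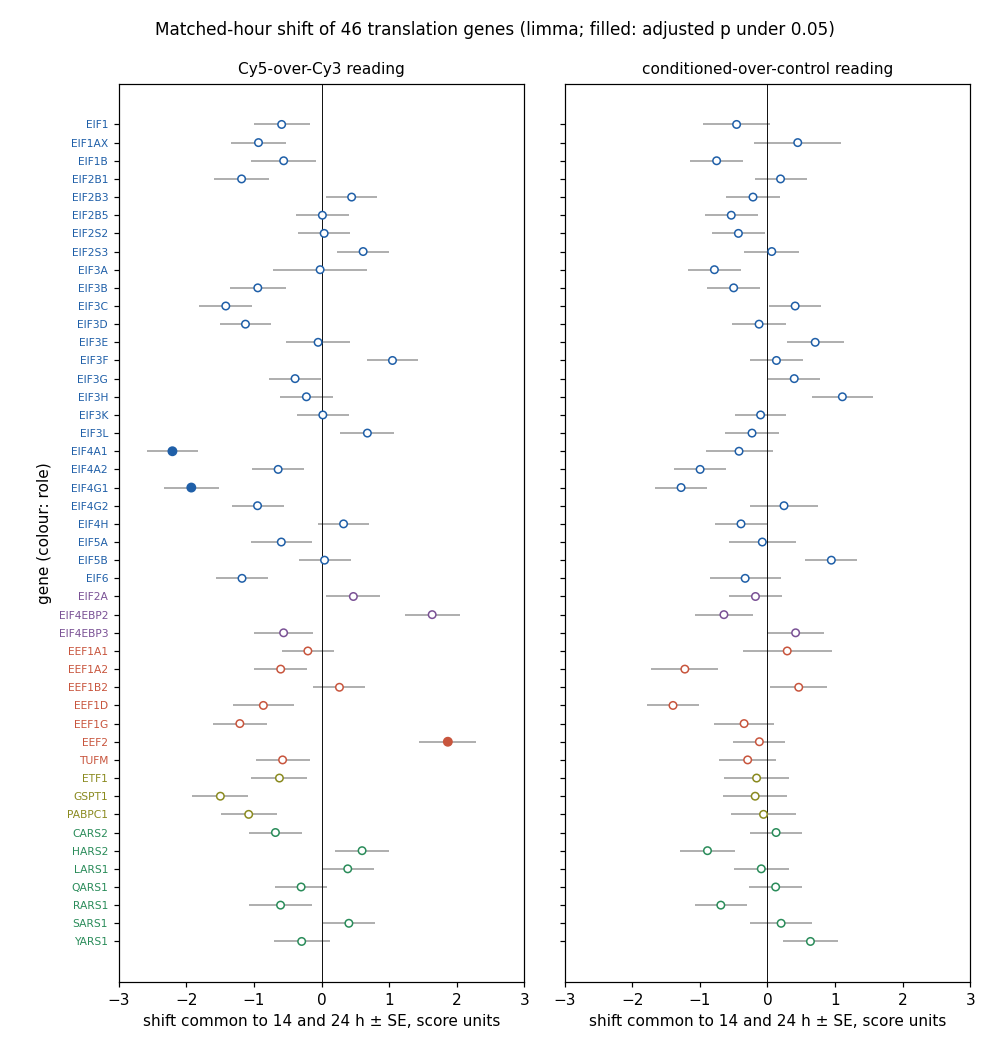
Shift common to 14 and 24 h for the 46 members, in score units with the SE of limma, in the Cy5-over-Cy3 reading (left) and the conditioned-over-control reading (right). Rows are genes coloured by role, and filled points have an adjusted p under 0.05. Filled points are EIF4A1, EIF4G1 and EEF2 on the left, and the right panel has 0.

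Among initiation factors, the cap-dependent helicase and scaffold had the lowest values. EIF4A1, the helicase that unwinds the 5′ leader of mRNAs, scored -3.34 on array A and -0.97 on array B at 14 h, and -1.91 and -2.60 at 24 h. All 4 values lay below 0. Its matched-hour mean was -2.21 ± 0.38 (SE, n = 2 comparisons, adjusted p = 0.0154 in limma). After centring on the 11 neighbouring spots of the array the value was -0.82 (adjusted p = 0.321) and after centring on 51 spots -1.52 (adjusted p = 0.037). On the B arrays alone it was -1.79 (adjusted p = 0.433), and with all 4 comparisons in the fit -1.08 (adjusted p = 0.328). The fit of all 4 counts comparisons that share RNA as independent. It also mixes same-hour and 0 h controls, so it estimates another quantity than the matched-hour shift. EIF4G1, the scaffold that bridges the cap to the ribosome, scored -2.95 on array A and -0.07 on array B at 14 h, and -3.46 and -1.23 at 24 h. Array A carried most of it. Its mean was -1.93 ± 0.41 (SE, adjusted p = 0.0311 in limma), and -0.65 on the B arrays alone (adjusted p = 0.693). Centring on 51 or 11 spots gave -1.38 and -1.43 (adjusted p = 0.0648 and 0.216), and all 4 comparisons in the fit gave -0.99 (adjusted p = 0.345). In the conditioned-over-control reading EIF4G1 scored -1.28 ± 0.39 (SE, adjusted p = 0.995 in limma) and EIF4A1 -0.42 ± 0.50. Array A is the same in both readings. For EIF4G1 it was larger in size than array B at both hours, so its mean is below 0 in either reading by construction.

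Other members related to these factors or helping them did not pass. EIF4G2, a relative of EIF4G1 without the cap-binding protein's docking site, was below 0 on all 4 arrays, with a mean of -0.95 ± 0.39 (SE, adjusted p = 0.181). The helicase paralog EIF4A2 scored -1.69 and -0.03 at 14 h and -1.58 and 0.74 at 24 h, with a mean of -0.64 ± 0.39 (adjusted p = 0.374). EIF4A1 and EIF4A2 encode closely related proteins, and how far a probe separates their transcripts is unknown, as it is for EEF1A1 and EEF1A2 and for EIF1 and EIF1B. EIF4H, which aids the helicase, scored 0.33 ± 0.38 (adjusted p = 0.658). The median of these 5 genes was -0.86 at 14 h and -1.10 at 24 h, against -0.04 and -0.11 over all named genes. Array A gave -1.69 and array B -0.07 at 14 h, and -1.58 and -1.23 at 24 h. Read as conditioned over control it was -0.83 at 14 h and -0.29 at 24 h. In the same 5 genes the median against MBN0 was -0.35 at 14 h and 0.66 at 24 h.

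The 10 measured subunits of eIF3, the large scaffold that holds the small ribosomal subunit, went both ways. EIF3C, a core subunit, scored -1.43 and -1.89 at 14 h and -0.59 and -1.76 at 24 h. It lay below 0 on all 4 arrays, with a mean of -1.42 ± 0.39 (SE, adjusted p = 0.0682 in limma). EIF3D, which can itself bind the cap of some mRNAs, scored -1.57 and -0.71 at 14 h and -0.93 and -1.29 at 24 h, with a mean of -1.13 ± 0.38 (adjusted p = 0.121). EIF3F lay on the other side, at 0.92 and 0.93 at 14 h and 1.45 and 0.91 at 24 h, with a mean of 1.05 ± 0.38 (adjusted p = 0.149). EIF3F is known in muscle as a target of the atrophy ubiquitin ligase FBXO32. EIF3A, the largest subunit, had opposite signs at the 2 hours, with -2.36 and -1.28 at 14 h and 0.75 and 2.81 at 24 h. EIF3B scored -1.43 ± 0.34 (SD, n = 2 arrays) at 14 h and -0.46 ± 1.07 at 24 h, and EIF3L 0.31 ± 0.03 and 1.05 ± 0.68. The means of the remaining EIF3E, EIF3G, EIF3H and EIF3K lay between -0.39 and 0.02. The median of the 10 was -0.19 at 14 h and -0.42 at 24 h.

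Among factors that bring in the initiator tRNA, EIF2S3, the gamma subunit of eIF2, scored 1.02 and 0.24 at 14 h and 0.34 and 0.87 at 24 h, above 0 on all 4 arrays, with a mean of 0.62 ± 0.38 (SE, adjusted p = 0.386). EIF2S2, the beta subunit, scored 0.04 ± 0.39. In the exchange factor eIF2B, the alpha subunit EIF2B1 lay below 0 on all 4 arrays (-0.70 and -0.90 at 14 h, -1.28 and -1.85 at 24 h) and had a mean of -1.18 ± 0.40 (adjusted p = 0.121). The gamma subunit EIF2B3 lay above 0 on all 4, at 0.45 ± 0.38, and the catalytic epsilon subunit EIF2B5 scored 0.01 ± 0.39. The start-codon factors EIF1, EIF1B and EIF1AX had means of -0.59, -0.56 and -0.93. The arrays of EIF1AX lay far apart, with 0.31 and -3.12 at 14 h. EIF6, which keeps large ribosomal subunits apart from small ones, scored -2.48 and -0.07 at 14 h and -0.54 and -1.63 at 24 h, with a mean of -1.18 ± 0.38 (adjusted p = 0.112). EIF5A, named as an initiation factor but known to act in elongation, scored -0.60 ± 0.45, and the subunit-joining GTPase EIF5B 0.04 ± 0.38. Over all 26 initiation factors, 17 means were below 0 and 9 above, beside 1560 below and 1362 above among the 2922 named genes. The median of these matched-hour means was -0.48 against -0.05 over all named genes. By hour, the initiation median was -0.10 at 14 h, near the -0.04 of all named genes. At 24 h it was -0.45, against -0.11. Read as conditioned over control, 16 matched-hour means were below 0 and 10 above, beside 1412 and 1510 of all named genes. The median of the matched-hour means was then -0.17 against 0.02.

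Of the other genes with EIF names, EIF4EBP2 is a repressor that binds the cap-binding protein when it is not phosphorylated. It scored 1.05 and 1.38 at 14 h and 0.93 and 3.18 at 24 h, above 0 on all 4 arrays. Its mean of 1.64 ± 0.41 (SE) missed the threshold, with an adjusted p of 0.0504 in limma. The value was 0.62 after centring on 11 spots, 0.99 on the A arrays alone and 2.28 on the B arrays alone (adjusted p = 0.428, 0.576 and 0.322). It passed after centring on 51 spots (1.70, adjusted p = 0.0241) and with the median over spots (1.64, adjusted p = 0.0387). EIF4EBP3, of the same family, scored 0.88 and -0.77 at 14 h and -1.17 and -1.18 at 24 h. EIF2A, an alternative initiator tRNA carrier, scored 0.47 ± 0.40. Read as conditioned over control, EIF4EBP2 had a mean of -0.64 ± 0.43, so its sign rests on the reading.

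Elongation factors had both the highest member and several low ones. EEF2, the translocase, scored 1.16 and 1.51 at 14 h and 2.34 and 2.46 at 24 h. As means over its 2 spots, arrays A and B differed by little at each hour, but the spots themselves ranged from 0.21 to 3.98. The matched-hour mean was 1.87 ± 0.42 (SE, n = 2 comparisons, adjusted p = 0.037 in limma). EEF2 lost its call on the A arrays alone (1.75, adjusted p = 0.14), on the B arrays alone (1.99, adjusted p = 0.322), after centring on 11 spots (1.57, adjusted p = 0.216) and with all 4 comparisons in the fit (1.51, adjusted p = 0.118). Read as conditioned over control, its mean was -0.12 ± 0.38. EEF1G, a structural subunit of the exchange factor EEF1B, scored -2.42 and -0.66 at 14 h and -0.69 and -1.06 at 24 h, with a mean of -1.21 ± 0.40 (adjusted p = 0.113). EEF1D, an exchange subunit of the same complex, scored -3.09 and -0.16 at 14 h and -1.42 and 1.24 at 24 h, with a mean of -0.86 ± 0.46 (adjusted p = 0.304). The third member of the complex, EEF1B2, scored 0.27 ± 0.39.

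The tRNA-delivering factor EEF1A1 scored -1.45 and 0.58 at 14 h and 1.63 and -1.57 at 24 h, so its arrays had opposite signs at both hours. The muscle form EEF1A2, which replaces EEF1A1 as muscle matures, scored -2.40 and 1.60 at 14 h and -1.26 and -0.36 at 24 h, with a mean of -0.60 ± 0.39 (adjusted p = 0.403). The mitochondrial counterpart TUFM lay below 0 on all 4 arrays, with a mean of -0.58 ± 0.40 (adjusted p = 0.438). The median of the 7 elongation factors was -0.43 at 14 h and -0.09 at 24 h.

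All 3 genes of release and poly(A) binding had means below 0. GSPT1, the release factor GTPase, scored -0.50 and -1.50 at 14 h and -2.86 and -1.13 at 24 h, below 0 on all 4 arrays. Its mean was -1.50 ± 0.41 (SE, adjusted p = 0.0689 in limma). PABPC1, which binds the poly(A) tail and touches EIF4G1, scored 0.05 and -1.23 at 14 h and -2.32 and -0.81 at 24 h, with a mean of -1.08 ± 0.41 (adjusted p = 0.161). ETF1, which recognises stop codons, scored -1.01 and 0.73 at 14 h and -0.56 and -1.66 at 24 h, with a mean of -0.62 ± 0.41 (adjusted p = 0.42).

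The 7 synthetases had 0 calls in limma and 0 members at an unadjusted p under 0.05, beside 5.2% and 22.8% of all genes, and 7 genes are too few to set apart from those shares. CARS2, the mitochondrial cysteine enzyme, scored -0.10 and -0.63 at 14 h and -1.01 and -0.98 at 24 h, with a mean of -0.68 ± 0.40 (SE, adjusted p = 0.353). RARS1, the arginine enzyme, scored -0.60 and 0.99 at 14 h and -2.00 and -0.82 at 24 h, with a mean of -0.61 ± 0.46 (adjusted p = 0.486). HARS2, the mitochondrial histidine enzyme, scored -0.94 and 1.46 at 14 h and 0.36 and 1.52 at 24 h, with a mean of 0.60 ± 0.40 (adjusted p = 0.419). The serine enzyme SARS1 and the leucine enzyme LARS1 had means of 0.41 and 0.39, and the glutamine enzyme QARS1 and the tyrosine enzyme YARS1 of -0.30 and -0.29. The median of the 7 was 0.21 at 14 h and -0.41 at 24 h. LARS1 and CARS2 kept 1 sign on all 4 arrays, 2 of 7 beside 29.1% of all genes.

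**Figure D2:**
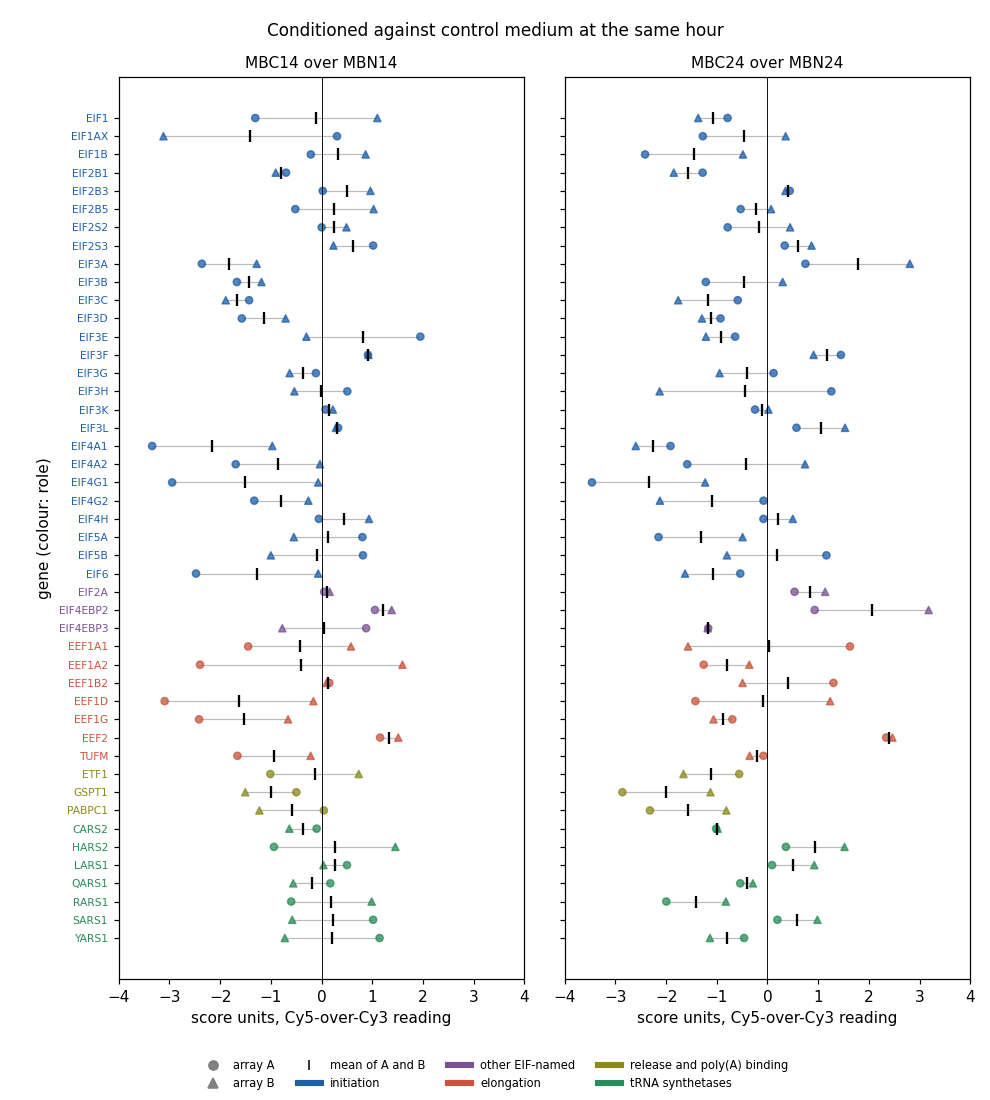
Scores of the 46 members on array A (circles) and array B (triangles) in MBC14 over MBN14 and MBC24 over MBN24, Cy5-over-Cy3 reading, with the mean of both as a black tick. EEF2 and EIF4EBP2 lie above 0 and EIF4A1, EIF4G1, EIF3C and GSPT1 below 0 on all 4 arrays.

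A size rule described single comparisons, for which no test exists: a mean of at least 1 score unit and at least 0.5 in that direction on each array. At 14 h 8 of 46 members passed it (17.4%), beside 19.9% of all named genes (9.1% higher and 10.8% lower). The 2 higher ones were EEF2 and EIF4EBP2, and the 6 lower ones were EEF1G, EIF3A, EIF3B, EIF3C, EIF3D and EIF4A1. At 24 h 17 members passed (37%), beside 17.6% of all genes. Of these 12 were lower (26.1%, against 9.69% of all genes) and 5 higher (10.9%, against 7.94%). The lower ones included all 3 genes of release and poly(A) binding (ETF1, GSPT1 and PABPC1), 7 initiation factors (EIF1, EIF2B1, EIF3C, EIF3D, EIF4A1, EIF4G1 and EIF6), EIF4EBP3 and RARS1. The higher ones were EEF2, EIF3A, EIF3F, EIF3L and EIF4EBP2. With the other reading 4 members passed at 14 h (8.7%, against 6.37%) and 4 at 24 h (8.7%, against 6.02%). By its construction the rule can be met in only 1 of the readings.

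At both hours in 1 direction 5 members passed (10.9%, against 6.67% of all genes, 3.76% higher and 2.91% lower), EEF2 and EIF4EBP2 higher and EIF3C, EIF3D and EIF4A1 lower. EIF3A passed in opposite directions. With the other reading 0 members passed at both hours, against 0.445% of all genes. On all 4 matched-hour arrays 19 members lay on 1 side of 0 (41.3%, against 29.1% of all genes), 11 below and 8 above (16.4% and 12.8% of all genes). The other reading gave 4 (8.7%, against 7.94%), with EIF3H and EIF5B above 0 (4.48% of all genes) and EIF2B5 and EIF4H below (3.46%). The means farthest above 0 in that reading were those of EIF3H (1.11 ± 0.45, SE), EIF5B (0.94 ± 0.38) and EIF3E (0.71 ± 0.42). Farthest below were EEF1D (-1.40 ± 0.38), EIF4G1 (-1.28 ± 0.39) and EEF1A2 (-1.22 ± 0.50). None of these 6 passed, with an adjusted p of 0.995 for EEF1D and EIF4G1.

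The comparisons with control medium at 0 h use conditioned RNA of the same 2 hours and share MBN0 with each other, so their values are set side by side without a test. For array B of MBC14 over MBN0 the label field and the labelling protocol disagree on which RNA took which dye, and the label field was followed. In MBC14 over MBN0 7 members passed the size rule (15.2%, beside 15.7% of all genes), 4 higher (7.29% of all genes) and 3 lower (8.38%). In MBC24 over MBN0 11 passed (23.9%, beside 19.3%), 5 higher (8.38%) and 6 lower (10.9%). All 4 arrays lay on 1 side of 0 for 13 members (28.3%, beside 25.6%), 5 above (11.9%) and 8 below (13.7%), and for 4 with the other reading (8.7%, beside 11.6%). Members past the size rule in the other reading were 5 (10.9%, beside 10.3%) and 1 (2.17%, beside 6.84%).

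TUFM, which delivers aminoacyl-tRNA to mitochondrial ribosomes, was the lowest member in both. It scored -2.06 on array A and -2.68 on array B at 14 h, and -2.63 and -1.57 at 24 h. All 4 arrays gave less than -1.5, whereas its matched-hour means were -0.94 at 14 h and -0.22 at 24 h. In the conditioned-over-control reading its means against MBN0 were 0.31 and -0.53. EEF1G scored -1.66 and -1.14 at 14 h and EIF2S3 -1.07 and -1.22, and both were nearer 0 at 24 h, at -0.40 ± 1.36 and -0.33 ± 0.70 (SD, n = 2 arrays). QARS1 scored -0.83 ± 0.25 at 14 h (SD, n = 2 arrays) and -1.68 and -1.80 at 24 h, below 0 on all 4 arrays. PABPC1 scored -0.09 ± 0.51 at 14 h, and -2.77 and -0.67 at 24 h.

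Past the size rule upward at 14 h were EEF2 (3.17 and 0.92), GSPT1 (1.17 and 2.27), EIF4A2 (2.16 and 0.99) and EEF1D (1.86 and 0.52). Read as conditioned over control their means were 1.13, -0.55, 0.59 and 0.67. At 24 h EEF2 scored 0.26 ± 1.07 (SD), GSPT1 0.67 ± 0.85 and EIF4A2 0.88 ± 0.38. In the Cy5-over-Cy3 reading GSPT1 lay above 0 against MBN0 and below 0 against control medium of the same hour. EIF4A1 and EIF4G1, the 2 genes that fell in the matched-hour test, scored -0.56 ± 0.03 and -0.80 ± 0.39 against MBN0 at 14 h and 0.66 ± 0.49 and 0.70 ± 1.20 at 24 h. At 24 h the highest means were those of HARS2 (0.61 and 3.19), EIF4EBP3 (1.85 and 0.72) and CARS2 (0.80 and 1.34). EIF4EBP2 scored 0.97 and 1.13. This order rests on the reading. As conditioned over control HARS2 had the lowest mean of all members (-1.29), CARS2 -0.27, EIF4EBP2 -0.08 and EIF4EBP3 0.56. The serine enzyme SARS1 scored -1.32 on both arrays. Of the 7 synthetases, HARS2 and CARS2 passed the size rule upward and QARS1 and SARS1 downward at 24 h. None of these 4 passed it in the other reading, where SARS1 and QARS1 had means of 0.00 and 0.06.

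**Figure D3:**
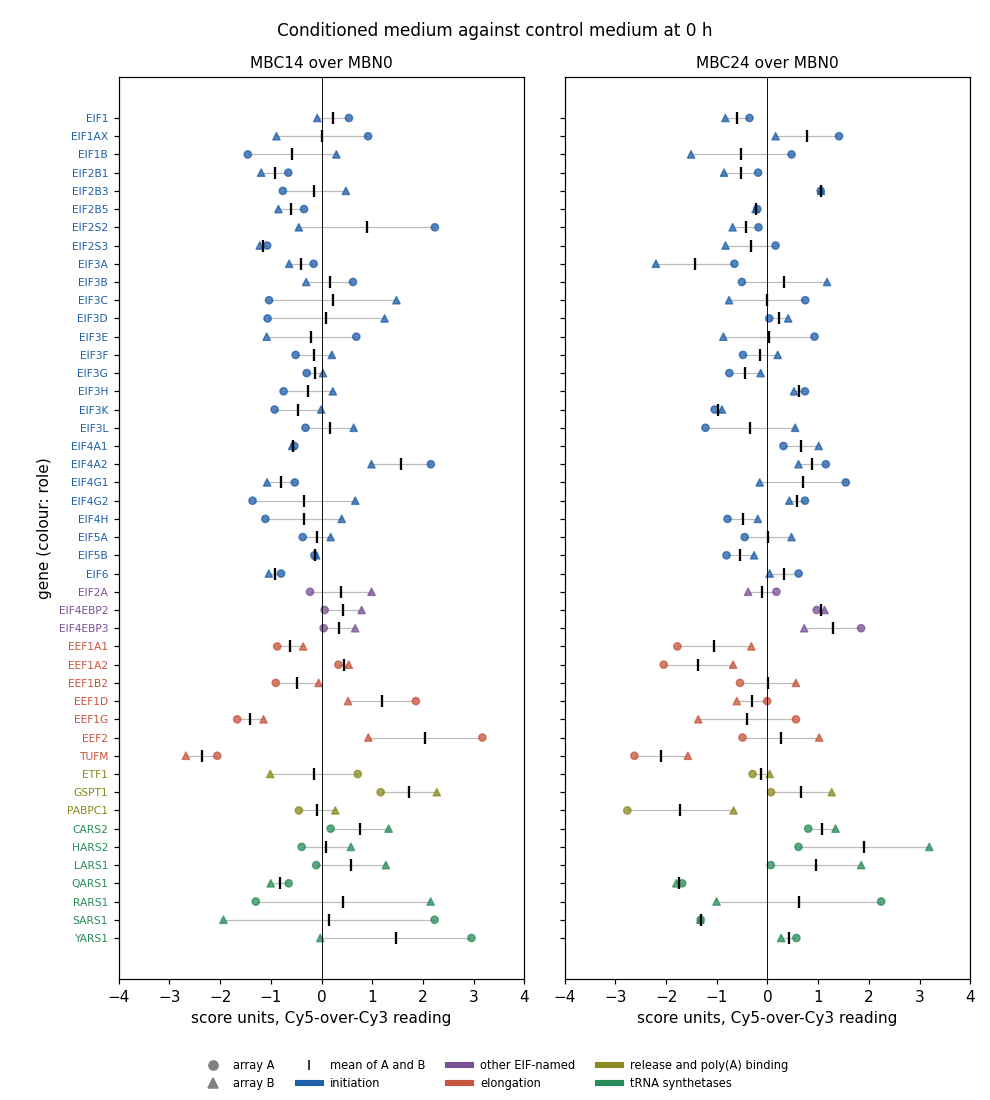
Scores of the 46 members on array A (circles) and array B (triangles) in MBC14 over MBN0 and MBC24 over MBN0, Cy5-over-Cy3 reading, with the mean of both as a black tick. TUFM lies between -2.68 and -1.57 on all 4 arrays.

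By role, the medians against MBN0 were -0.18 at 14 h and -0.07 at 24 h for initiation factors, -0.48 and -0.40 for elongation factors, and 0.43 and 0.62 for synthetases. At 14 h the arrays differed, with -0.10 on A and 0.58 on B for synthetases, -0.87 and -0.06 for elongation factors, and -0.52 and -0.05 for initiation factors. At 24 h they were 0.57 and 0.27 for synthetases, -0.54 and -0.61 for elongation factors, and -0.07 and -0.14 for initiation factors. All named genes had medians of -0.04 and -0.03. The synthetase values ranged from -0.83 to 1.47 at 14 h and from -1.74 to 1.90 at 24 h, so single enzymes spread far beyond the distance between the role medians. In the conditioned-over-control reading the synthetase medians were -0.49 and 0.00, those of elongation factors -0.10 and -0.55, and those of initiation factors 0.00 and 0.13.

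**Figure D4:**
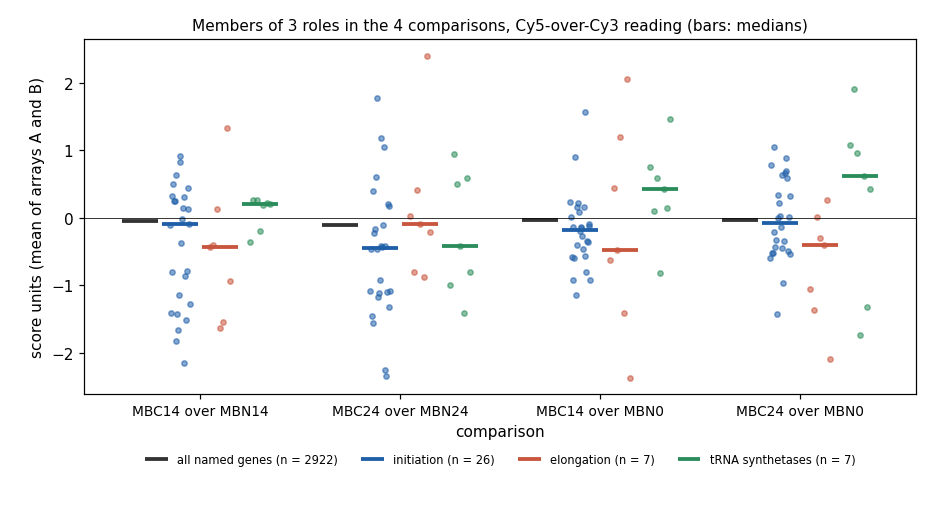
Mean score of each initiation factor, elongation factor and synthetase in the 4 comparisons (points, Cy5-over-Cy3 reading), with role medians and the median of all 2922 named genes as bars. The medians lie within 1 score unit of 0 while single genes reach from -2.37 to 2.40.

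Of 47 symbols listed for translation and its control, 22 were measured and not members. The 47 include EIF4EBP2, which is a measured member, and both EPRS and EPRS1, which name 1 gene. Of the 22, 1 fell and 0 rose in the matched-hour test, beside 2.12% and 3.08% of all named genes. It was PAIP1, a partner of the poly(A)-binding protein that promotes initiation, with -1.59 ± 0.39 (SE, adjusted p = 0.0476 in limma). The next largest in size did not pass. TSC1, an inhibitor of mTORC1, scored -1.44 ± 0.40 (adjusted p = 0.0689 in limma), and ABCF1, which assists eIF2, -1.36 ± 0.45 (adjusted p = 0.117). ATF4, the transcription factor of the amino acid response, scored -1.24 ± 0.41 (adjusted p = 0.117). EIF4EBP1, the repressor related to EIF4EBP2, scored 1.11 ± 0.39 (adjusted p = 0.133). The median of the 22 was -0.53. The other reading gave 0 calls in this list, as in all genes.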

How the data were processed

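The authors deposited 1 signed score per spot and array for 8 arrays. Background correction, normalisation, scale and direction of the ratio are not given in the sources used here, and scanner intensities were not used here, so no dim spot was left out. Each array was centred on its median, array B was turned in sign, and spots were averaged to 2922 genes by the platform annotation of 2016, whose symbols are human while the RNA is from mouse. The test plan assumed array values on a log-like scale and was applied to the scores unchanged. The matched-hour test was limma 3.58.1 in R 4.3.3 on 2 array-averaged values per gene, two-sided against 0, with Benjamini-Hochberg adjustment over all 2922 genes and a threshold of 0.05. The p-values rest on the difference between these 2 values, moderated by limma with that of all genes. The total was 9.37 degrees of freedom at the median. The difference lies between 2 hours of 1 replicate each, may be technical, and does not measure the spread between replicate cultures.

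Members, role lists and tests were chosen with earlier results of these data known. EIF4EBP2 and EIF4EBP3 belong by symbol and were kept apart from the initiation factors. Named were members past the test, past the size rule at both hours, the 3 of each role with the largest means, and the 3 highest and lowest past the rule against MBN0. Other members are given for completeness. Alternatives covered the reading, centring, scale, spot summary, single arrays, a block for the array letter, all 4 comparisons and the size rule. Promoters come from RefSeq, build GRCm38.p6.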

Additional observations from a re-analysis of the deposited data

Results flagged for a closer look

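In the Cy5-over-Cy3 reading EIF3A was below 0 on both arrays at 14 h and above 0 on both at 24 h matched. Its mean scores were -1.82 and 1.78, and -0.54 and -1.03 as conditioned over control. Against MBN0, EEF1A2, EEF1D, EIF4A1 and EIF6 had both arrays on 1 side of 0 at 14 h and on the other at 24 h, in the Cy5-over-Cy3 reading. The share of all named genes that did so was not computed. At 24 h array A of EEF1D (-0.01) and array B of EIF6 (0.04) lay close to 0. EEF1A2 had means of 0.44 and -1.36, EEF1D of 1.19 and -0.31, EIF4A1 of -0.56 and 0.66, and EIF6 of -0.92 and 0.33. These differences between hours were not tested, since each comparison is 1 replicate.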

How the results depend on the processing

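The 3 matched-hour calls became 0 in the conditioned-over-control reading (4 members at an unadjusted p under 0.05 in limma), 0 after centring on 11 neighbouring spots (6), and 0 with all 4 comparisons in the fit (7). Calls over all genes went from 152 to 0, 2 and 9 in these settings, so the loss was general. The fit of all 4 comparisons counts shared RNA as independent and mixes same-hour and 0 h controls, so it does not test the matched-hour shift alone. Leaving out an array letter gave 0 to 3 calls, 0 without the A arrays (7 at an unadjusted p under 0.05, and 0 over all genes). The 3 calls without the B arrays included EIF4A1 and EIF4G1 but not EEF2, with 128 over all genes. Centring on 51 spots and the median over spots each gave 4 (157 and 189 over all genes). No centring and division by the SD each gave 3 (160 and 111). With the array letter as a block and the 4 matched-hour arrays as observations the count was 3 (EIF4A1, EIF4G1 and EEF2), and 98 over all genes. The letter is the dye orientation, and both arrays of a comparison hold the same RNA pair. This fit therefore adds no replicates. Between comparisons, deviations of A arrays correlated between -0.10 and 0.17. By construction these deviations are the means of the conditioned-over-control reading, so they cannot show whether the letters pair the comparisons. EEF2 turned to -0.12 and EIF4EBP2 to -0.64 in the conditioned-over-control reading. Of 10 alternatives, EIF4A1 passed in 6, EIF4G1 and EEF2 in 5 each, and EIF4EBP2 in 2.

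In that reading the members past the size rule numbered 4 (14 h matched), 4 (24 h matched) and 1 (24 h against MBN0). Centring on 11 spots gave 3 at 14 h matched and 7 at 24 h against MBN0, and on 51 spots 6 in the latter. Dividing each array by its SD, which shrinks all values, gave 3, 8, 4 and 2 in the order 14 h matched, 24 h matched, 14 h and 24 h against MBN0. A rule of 1.5 and 0.75 gave 3, 7, 4 and 2. A rule of 0.5 and 0.25 gave 27, 14 and 19 in the last 3. Single arrays gave 12 to 22, 21 to 23, 16 and 14 to 16. Over all genes, shares past the rule in the same order were 8.83%, 8.28%, 6.74% and 7.46% by SD, 8.35%, 7.97%, 6.26% and 7.15% under 1.5 and 0.75, and 37%, 37%, 34.6% and 37.8% under 0.5 and 0.25. They were 12.5% (14 h matched) and 12.9% (24 h against MBN0) on 11 spots, 15.3% on 51 spots in the latter, and 32.4% to 34.7% on single arrays. For 24 h matched the members' share was 17.4% by SD, 15.2% and 58.7% under the other 2 rules, and 45.7% to 50% on single arrays.

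The initiation median at 14 h was -0.24 in the conditioned-over-control reading, -0.14 without centring, -0.081 and -0.18 on 51 and 11 spots, -0.076 by SD and -0.13 with the median over spots. At 24 h it was -0.045 in that reading, -0.33 and -0.33 on 51 and 11 spots and -0.31 by SD. The elongation median at 24 h was 0.14 in that reading and 0.33 on 11 spots. The synthetase median at 24 h was 0.24 and -0.018 on 51 and 11 spots and -0.28 by SD. On single arrays the medians at 14 and 24 h ranged from -0.16 to -0.16 and -0.56 to -0.49 (initiation), -1.66 to 0.10 and -0.36 to -0.080 (elongation), and -0.56 to 0.17 and -0.46 to -0.29 (synthetases). The cause of these changes was not tested. A background correction and a filter on dim spots were not run, since scanner intensities were not used here, and signal over background is unknown.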

Other observations

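Probes of 1 member did not always give 1 value. EIF3K, a small eIF3 subunit, has 2 pairs of adjacent spots at different places on the array. The first pair scored 0.98, 1.01, 0.44 and 0.57 on arrays A and B at 14 h and A and B at 24 h matched, and the second -0.82, -0.56, -0.93 and -0.53. Each pair kept its sign on all 4 arrays, so the gene mean of 0.02 averages a positive and a negative value. EIF3E, another eIF3 subunit, had matched-hour means of -0.79 and 0.69 on its 2 pairs. The 3 pairs of EIF3G had -0.97, -0.27 and 0.06. The low value of EIF1AX on array B at 14 h came from 1 pair (-5.47, against -0.77 on the other).

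Adjacent spots of the called genes differed as well. At 24 h EIF4A1 scored -1.14 and -2.68 on array A and -2.99 and -2.20 on array B, and at 14 h -3.59 and -3.10 on A. EIF4G1 scored -2.07 and -4.85 on array A at 24 h and -2.03 and -0.43 on array B, and at 14 h -2.96 and -2.94 on A and -0.16 and 0.02 on B. EEF2 scored 1.05 and 3.63 on array A at 24 h and 0.95 and 3.98 on array B (spot 1, then spot 2). Its second spot was the higher on both arrays at 24 h. At 14 h it was the lower, with 2.10 and 0.21 on array A and 1.58 and 1.45 on array B. The median SD between spots of a gene was 0.55 over the members and 0.60 over all named genes.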
